A study of Mus musculus with 6 samples.

Results

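Cyclin-dependent kinases (CDKs) drive cells from one phase of the division cycle to the next, and 2 families of small proteins hold them back. The INK4 proteins bind CDK4 and CDK6 and keep D-type cyclins from joining them, whereas the CIP/KIP proteins bind whole cyclin-CDK complexes and act mainly on those of CDK2. The INK4 locus is well known as a tumor suppressor locus of melanoma. All 7 genes of the families were examined here in B16 mouse melanoma cells: Cdkn1a (p21), Cdkn1b (p27) and Cdkn1c (p57) of the CIP/KIP family, and Cdkn2a (p16 and p19ARF), Cdkn2b (p15), Cdkn2c (p18) and Cdkn2d (p19) of the INK4 family. They were picked by name, from 55335 genes in the count tables, and each was found by its Ensembl identifier in GENCODE release M21. Of the 7 genes, 4 were among the 13642 genes with enough counts to be tested, 3 were not, and 2 of these 3 had no count in any library.

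RNA of cultured B16-BL6 cells, a line of the B16 melanoma of C57BL/6 mice, was compared between scrambled control cells (3 libraries, replicates 1, 2 and 3) and IFNγR1KO cells (3 libraries, replicates 10, 11 and 12). Both had received a lentivirus with Cas9, puromycin selection and a guide RNA, which was directed against GFP in scrambled control cells and against the first exon of Ifngr1, the ligand-binding chain of the interferon-γ receptor, in IFNγR1KO cells. The labels give the control genotype as WT, and no cytokine or drug is named for these cultures. IFNγR1KO cells were single-cell clones picked for the lack of an interferon response, so that a difference between clones and the loss of the receptor cannot be told apart, and the replicates were wells seeded in parallel, so that their spread may be technical. Whether the 3 IFNγR1KO cultures came from the same clone is not given in the sources used here, and an SE or p below measures only the spread between these cultures. Poly(A) RNA was sequenced from both ends, and reads were counted per gene. Libraries held between 6698956 and 10579788 counts on genes, fewer in each IFNγR1KO library than in any control library. Between 46.9% and 47.7% of the reads in each count table were counted as matching no annotated gene. Reads with several alignments or an ambiguous gene were also left unassigned and are not in that share. Ifngr1 itself had 154, 144 and 172 counts in control libraries and 80, 85 and 82 in IFNγR1KO libraries. Its log2 fold change was -0.47 (SE 0.16, adjusted p = 0.0729), and the groups did not overlap (p = 0.1 by an exact, two-sided permutation test, which cannot go lower with 3 against 3). Melanocyte genes, among them Pmel, Tyrp1 and Dct, summed to between 27912 and 34700 CPM (counts relative to the TMM-adjusted library size) in every library. Most of that sum is Dct, Pmel and Tyrp1. Of the 8 melanocyte markers, 1 was called, the receptor gene Kit, which was lower in IFNγR1KO cells (log2 fold change -1.96, SE 0.19, adjusted p = 4.78e-05). The 12 markers of leukocytes, endothelium, epithelium, fibroblasts and erythroid cells summed to 4.68 to 6.84 CPM in control and 6.68 to 8.72 CPM in IFNγR1KO libraries. Of these 12, 6 were at 0 in every library, Acta2 among them. The 2 that could be tested, both fibroblast genes, pointed opposite ways. Col1a1 was higher in IFNγR1KO cells (log2 fold change 1.96, SE 0.32, adjusted p = 0.00175), and Pdgfra had a log2 fold change of -0.77 (SE 0.28, adjusted p = 0.0866). The part of these markers in the results below was not tested.

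Both Cdkn2a and Cdkn2b were without a single count in the B16 line, while Cdkn2c, Cdkn2d, Cdkn1a and Cdkn1b were well expressed and Cdkn1c was close to 0. Levels were compared between genes as CPM per kilobase of exonic length. Among scrambled control libraries, Cdkn2d stood highest, with 52.6, 60.9 and 49.4 CPM per kb in replicates 1, 2 and 3. Cdkn1a followed with 30.2, 46.9 and 43.4 CPM per kb, Cdkn2c with 25.1, 28.8 and 29.0, and Cdkn1b with 29.7, 23.4 and 23.2. The ranges of Cdkn2d and Cdkn1a did not overlap, nor did those of Cdkn1a and Cdkn2c, but Cdkn2c and Cdkn1b did not differ beyond their spread. In IFNγR1KO libraries the order was another. Cdkn1b held 58.2, 46.9 and 37.4 CPM per kb in replicates 10, 11 and 12, and Cdkn1a held 39.9, 40.8 and 49.9, which is within the range of Cdkn1b. Cdkn2d came next with 39.7, 35.5 and 31.5 CPM per kb, all under the lowest value of Cdkn1a by a small margin. Cdkn2c was last, with 14.6, 17.0 and 17.1 CPM per kb, apart from the other 3 genes. The place of Cdkn1a rests on the length used, since 5 annotated transcripts make up its 3553 exonic bases and the longest coding one has 2080. With the longest coding transcript as the length, its level was 68.6 CPM per kb in control and 74.3 in IFNγR1KO cells, above the means of the other 3 genes in both groups.

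**Figure D1:**
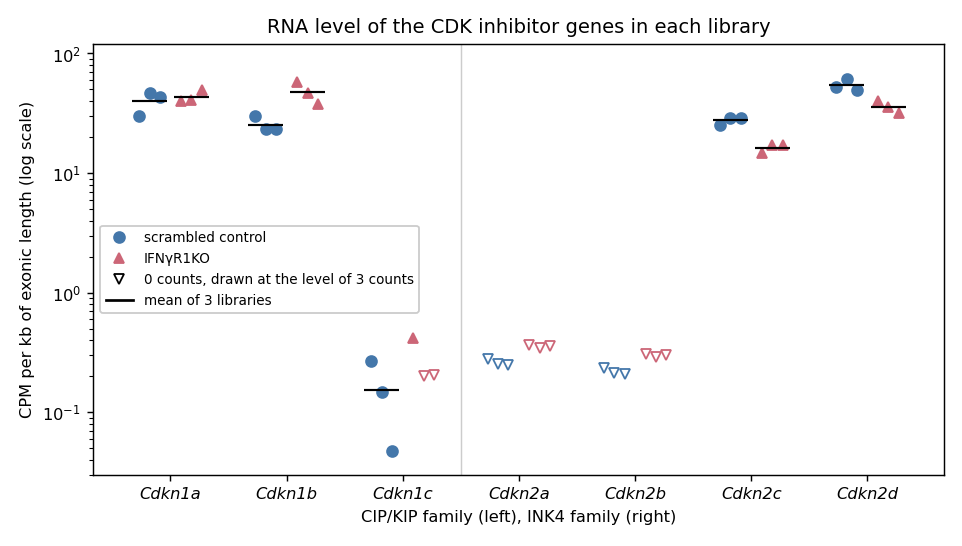
Level of each CDK inhibitor gene in CPM per kb of exonic length (log axis) in 3 scrambled control (circles) and 3 IFNγR1KO (triangles) libraries, with bars at the mean where every library has a count and open markers for libraries at 0 drawn at the level of 3 counts. Cdkn1a, Cdkn1b, Cdkn2c and Cdkn2d lie between 14.6 and 60.9 CPM per kb, and Cdkn1c, Cdkn2a and Cdkn2b lie far below.

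Against other genes, these were not weakly expressed inhibitors. Among 11125 tested protein-coding genes ranked by CPM per kb, Cdkn2d lay at percentile 90.9 in control cells and 86.9 in IFNγR1KO cells, Cdkn1a at 87.8 and 89.3, Cdkn1b at 81.2 and 90.3, and Cdkn2c at 82.6 and 73.0. A level of RNA in a bulk culture averages over its cells, so that fewer cells with a transcript and less of it per cell cannot be told apart.

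Cdkn2a (ENSMUSG00000044303.6) lies on chromosome 4 of GRCm38 from 89274471 to 89294653, on the minus strand, and Cdkn2b (ENSMUSG00000073802.5) lies beside it from 89306299 to 89311039. Cdkn2a encodes an INK4 protein, p16, and, through another first exon and reading frame, the MDM2 antagonist p19ARF. Its 2 coding transcripts in the annotation start at 89282192 and 89294653 and count as 1 gene here, so a count of 0 covers both. Neither gene had a count in any of the 6 libraries, out of 51410055 counts on genes in all. Over all 6 libraries together, a count of 0 allows up to 3 counts, or 0.0587 CPM (counting error only). In a single library, it allows up to 3 counts there, or 0.290 to 0.426 CPM. With that floor, Cdkn2a was at least 40.1-fold and Cdkn2b at least 47.6-fold below the lowest single value of an expressed inhibitor, 14.6 CPM per kb for Cdkn2c in IFNγR1KO replicate 10. Zero counts are not rare as such, because 33.5% of 21899 protein-coding genes had none in any library.

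The stretch of chromosome 4 around both genes was read in the same way. Mtap, which encodes a methionine salvage enzyme, is the next protein-coding gene on the side of lower coordinates, from 89137122 to 89181081. It was well expressed, with 2830, 3070 and 3000 counts in control libraries and 1138, 1244 and 1083 in IFNγR1KO libraries. Its log2 fold change was -0.90 (SE 0.13, adjusted p = 0.000801), and no IFNγR1KO library came near a control library on the CPM scale. Between the end of Mtap and the start of Dmrta1, a stretch of 498354 bases, the annotation has 9 genes, Cdkn2a and Cdkn2b among them. In no library did any of these 9 have a count. Apart from Cdkn2a and Cdkn2b, they are pseudogenes and noncoding genes. Among all 55335 genes, 57.8% had no count in any library. Dmrta1, a transcription factor gene on the far side, was at 0 in every library as well. The next protein-coding gene beyond it with at least 100 counts was Caap1, with 710 counts, 4805308 bases farther, and 5 other protein-coding genes lay between. Counts on annotated genes do not show whether the DNA of this stretch is present.

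**Figure D2:**
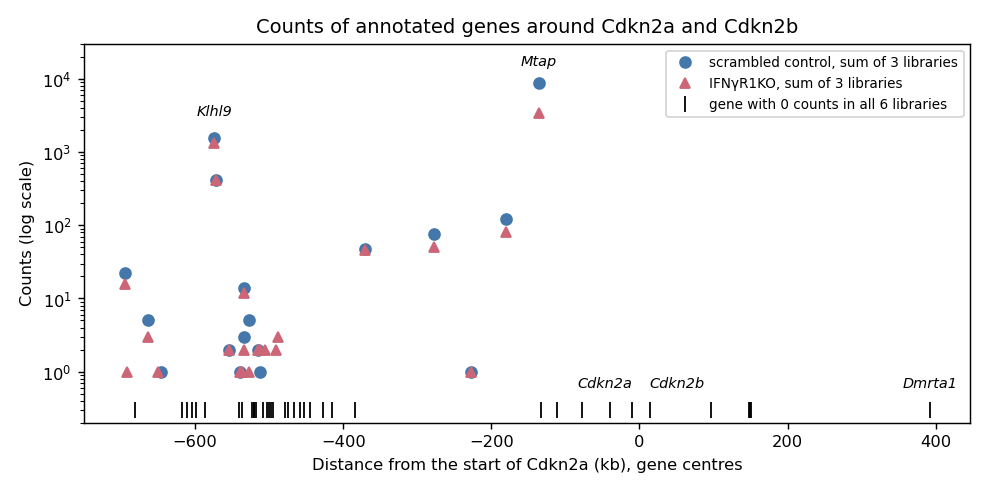
Summed counts of 3 scrambled control (circles) and 3 IFNγR1KO (triangles) libraries for annotated genes, by the distance of the gene's centre from the start of Cdkn2a in kb, with ticks for genes at 0 in all 6 libraries (count axis is logarithmic). Mtap has 8900 and 3465 counts, and no gene from there to Dmrta1 has any.

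Cdkn1c (ENSMUSG00000037664.13, chromosome 7 from 143458339 to 143461050, minus strand) encodes p57 and is an imprinted gene in mouse. It had 5, 3 and 1 counts in control libraries and 6, 0 and 0 in IFNγR1KO libraries. The groups overlapped, and the two-sided exact permutation test of log2 CPM gave p = 0.6 for a difference of -0.40. A difference was not detectable at this depth. Gm44732, an antisense gene on the other strand, shares 30.7% of the exonic bases of Cdkn1c and had between 1 and 4 counts per library, and the strand setting of the counting is not given in the sources used here. Next to Cdkn1c, Kcnq1, a potassium channel gene, had 1 count in all libraries together, and Slc22a18, a transporter gene, had 87, 111 and 108 counts in control and 74, 83 and 81 in IFNγR1KO libraries.

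IFNγR1KO cells were then set against scrambled control cells for the 4 expressed inhibitors. Cdkn1b was higher, Cdkn2c and Cdkn2d were lower, and Cdkn1a was not called. Thus 3 of 4 tested inhibitors passed an adjusted p of 0.05 in edgeR's quasi-likelihood test, where 15.3% of all 13642 tested genes did. 1 of 4 was called higher, with 7.73% among all tested genes, and 2 of 4 were called lower, with 7.62% among all. The group ranges of CPM did not overlap for the same 3 of 4, against 32.6% of all tested genes. None of the 4 changed by more than 1 on the log2 scale, the added criterion of the study for a differentially expressed gene, which 5.2% of all tested genes met. Fold changes below are on the log2 scale, IFNγR1KO against scrambled control, and the median over all tested genes was -0.0015. Because 3 of the 7 genes were too low for the test, these counts do not cover the families as a whole.

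Cdkn1b (ENSMUSG00000003031.14, chromosome 6 from 134920401 to 134925513, plus strand) encodes p27, an inhibitor of cyclin E and CDK2 that accumulates in resting cells. It had 1246, 1069 and 1091 counts in control libraries and 1864, 1577 and 1212 in the smaller IFNγR1KO libraries. Scaled to CPM, these were 135, 106 and 105 in control and 265, 214 and 170 in IFNγR1KO cells. Every IFNγR1KO library exceeded every control library, although IFNγR1KO replicate 12 stood nearer to control replicate 1 than to IFNγR1KO replicate 10. The log2 fold change was 0.90 (SE 0.18, 95% interval 0.52 to 1.28, adjusted p = 0.00476), or 1.87-fold. Without single libraries it ranged from 0.73 to 1.05, with adjusted p between 4.42e-05 and 0.0441. The neighboring genes Gpr19, an orphan receptor, and Apold1, an endothelial early response gene, had log2 fold changes of -0.05 (SE 0.16, adjusted p = 0.878) and -0.20 (SE 0.14, adjusted p = 0.378).

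Cdkn2c (ENSMUSG00000028551.14, chromosome 4 from 109660876 to 109667189, minus strand) encodes p18, an INK4 inhibitor of CDK4 and CDK6. It had 620, 777 and 806 counts in control libraries and 276, 338 and 327 in IFNγR1KO libraries. On the CPM scale these were 67.3, 77.3 and 77.9 in control and 39.2, 45.8 and 46.0 in IFNγR1KO cells, with a wide gap between the groups. The log2 fold change was -0.76 (SE 0.14, 95% interval -1.06 to -0.47, adjusted p = 0.00281), or 0.589-fold. Cdkn2c was the only INK4 gene of chromosome 4 with counts. Its neighbor Faf1, a gene for a FAS-associated protein, lies 9398 bases away and went the other way, with a log2 fold change of 0.56 (SE 0.14, adjusted p = 0.0209).

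Cdkn2d (ENSMUSG00000096472.2, chromosome 9 from 21288410 to 21291407, minus strand) encodes p19, an INK4 protein whose RNA is known to vary with the cell cycle. It had 763, 963 and 805 counts in control libraries and 440, 413 and 353 in IFNγR1KO libraries. These were 82.8, 95.8 and 77.8 CPM in control and 62.5, 55.9 and 49.6 CPM in IFNγR1KO cells. All IFNγR1KO libraries lay below all control libraries. The log2 fold change was -0.61 (SE 0.14, 95% interval -0.92 to -0.30, adjusted p = 0.0134), or 0.655-fold. The call did not hold without control replicate 2 (log2 fold change -0.52, adjusted p = 0.0686) or without IFNγR1KO replicate 11 (-0.59, adjusted p = 0.0754). Those 2 fits also called fewer among all genes, 1087 and 1028, where the fit of all 6 libraries called 2093. Kri1, a ribosome biogenesis gene that ends 440 bases away, had a log2 fold change of -0.18 (SE 0.14, adjusted p = 0.45).

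Cdkn1a (ENSMUSG00000023067.14, chromosome 17 from 29090976 to 29100727, plus strand) encodes p21, the best known target of p53 among the inhibitors. It had 987, 1675 and 1594 counts in control libraries and 998, 1069 and 1260 in IFNγR1KO libraries. The CPM were 107, 167 and 154 in control and 142, 145 and 177 in IFNγR1KO cells. The groups overlapped, and the lowest of all 6 values was that of control replicate 1. The log2 fold change was 0.12 (SE 0.17, adjusted p = 0.718), with a 95% interval from -0.26 to 0.49, so that a modest change in either direction is within the error. Without control replicate 1 it was -0.05 (adjusted p = 0.869). AC167363.2, a gene model on the other strand, shares 7.68% of the exonic bases of Cdkn1a, and it had 313, 447 and 492 counts in control and 320, 345 and 369 in IFNγR1KO libraries. Without a known strand setting, reads of these 2 genes cannot be told apart there. The splicing factor gene Srsf3, next to Cdkn1a, had a log2 fold change of -0.50 (SE 0.18, adjusted p = 0.0811). The remaining neighbors of the 4 inhibitors, Rab44, 4930522H14Rik and Ap1m2, had at most 13 counts in a library and were not tested.

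**Figure D3:**
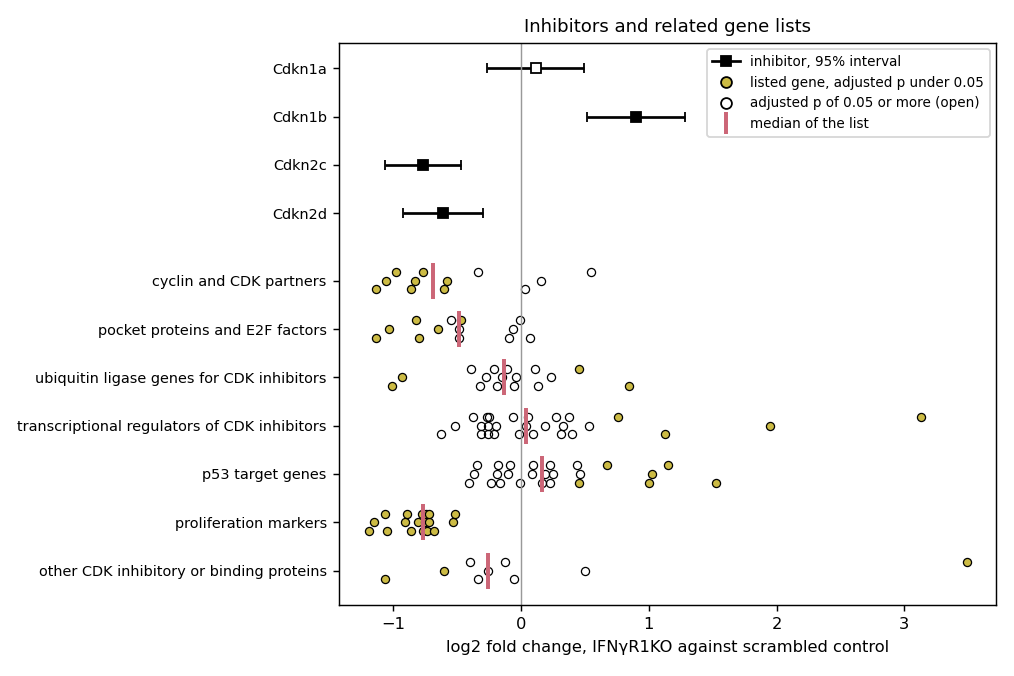
Log2 fold change of IFNγR1KO against scrambled control (horizontal axis) for the 4 tested inhibitors (squares with 95% intervals) and for the tested genes of 7 lists (circles, filled where the adjusted p was under 0.05, with a bar at the median of each list). Cdkn1b lies at 0.90, opposite to Cdkn2c at -0.76 and Cdkn2d at -0.61, and all 18 proliferation markers lie below 0.

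Promoter sequence is shown for the inhibitors whose RNA differed between the groups, to set the rising gene beside the falling pair. The windows reach from 250 bases before to 50 bases after a transcript start of RefSeq on GRCm38.p6, and 6 of the 7 genes had at least 1 window. The window of Cdkn1b is chr6:134920151-134920450 (plus strand), that at the upstream of 2 RefSeq starts of Cdkn2c is chr4:109666707-109667006 (minus strand) and that of Cdkn2d is chr9:21291160-21291459 (minus strand). Capitals mark matches on either strand to the GC box GGGCGG, to CCAAT and to an E2F core, which was searched as TTCCCGC or TTGGCGC or TTGCCGC or TTCGCGC.
Cdkn1b: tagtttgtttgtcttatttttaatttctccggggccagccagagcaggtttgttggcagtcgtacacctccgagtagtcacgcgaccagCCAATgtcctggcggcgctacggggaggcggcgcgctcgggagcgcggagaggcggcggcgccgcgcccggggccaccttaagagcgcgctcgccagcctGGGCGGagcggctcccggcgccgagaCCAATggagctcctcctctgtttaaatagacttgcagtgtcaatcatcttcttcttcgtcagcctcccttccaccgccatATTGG
Cdkn2c: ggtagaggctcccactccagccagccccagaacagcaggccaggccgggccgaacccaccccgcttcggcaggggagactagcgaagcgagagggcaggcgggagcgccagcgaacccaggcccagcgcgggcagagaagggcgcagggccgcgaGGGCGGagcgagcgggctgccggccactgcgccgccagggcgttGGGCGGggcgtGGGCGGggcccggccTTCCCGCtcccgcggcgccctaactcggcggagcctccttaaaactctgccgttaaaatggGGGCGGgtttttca
Cdkn2d: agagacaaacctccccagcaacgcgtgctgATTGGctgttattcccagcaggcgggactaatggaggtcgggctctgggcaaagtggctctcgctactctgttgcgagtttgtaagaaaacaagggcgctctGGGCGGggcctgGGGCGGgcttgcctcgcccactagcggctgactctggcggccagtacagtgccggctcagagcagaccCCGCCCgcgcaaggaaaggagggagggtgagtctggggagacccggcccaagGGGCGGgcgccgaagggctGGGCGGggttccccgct
The Cdkn1b window held 3 matches to CCAAT and 1 GC box. The Cdkn2c window shown held 4 GC boxes and 1 E2F core, and the Cdkn2d window held 5 GC boxes and 1 CCAAT. The window at the other Cdkn2c start, chr4:109665323-109665622, held 1 CCAAT and no GC box or E2F core, and gene counts do not separate the 2 starts. No matches overlapped in the windows shown. Of 32851 promoter windows of this length, 35.7% held a GC box, 37.4% held CCAAT and 9.57% held an E2F core. The share of G and C was 62.0% in the Cdkn1b window, 73.3% in the Cdkn2c window shown and 66.3% in the Cdkn2d window. Its median over all windows was 52.7%, and the motif shares were not adjusted for it. None of the 3 windows shown held TGTTTAC (a FOXO motif, in 3.65% of all windows), TGACGTCA (a cAMP response element, in 1.79%) or TGATGNAA (a C/EBP-ATF motif, in 3.97%). These matches describe letters of the reference genome, and no binding was measured.

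For Cdkn1a, the window at the upstream start is shown because it holds the spaced pair CATGNNNNNNCATG of a p53 response element, in capitals. It lies at chr17:29090729-29091028 (plus strand).
Cdkn1a: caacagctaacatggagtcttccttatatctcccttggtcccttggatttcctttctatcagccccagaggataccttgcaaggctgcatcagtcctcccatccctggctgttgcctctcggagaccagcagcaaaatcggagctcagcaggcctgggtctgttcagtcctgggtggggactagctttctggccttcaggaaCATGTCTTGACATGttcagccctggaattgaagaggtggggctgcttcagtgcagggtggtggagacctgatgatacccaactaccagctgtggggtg
The pair was found in 0.712% of all windows, and not in the other Cdkn1a window, which held 2 GC boxes.

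The make-up of the inhibitor RNA differed between the groups while its sum per kilobase did not move beyond the spread. The 7 genes summed to 148 ± 11.4 CPM per kb (SD, n = 3) in scrambled control and 143 ± 8.77 (SD, n = 3) in IFNγR1KO cells. Not divided by length, the sum pointed the other way, with 393 to 446 CPM in control and 443 to 509 CPM in IFNγR1KO libraries. The shares below are of the sum per kilobase. The CIP/KIP genes held 43.6%, 44.0% and 45.9% of that sum in control libraries and 64.5%, 62.5% and 64.2% in IFNγR1KO libraries. That is a share of 44.5% ± 1.22 (SD, n = 3) against 63.7% ± 1.06 (SD, n = 3), and the 2 groups were far apart relative to the spread within each. The share of Cdkn1b went from 17.4% ± 3.69 to 33.0% ± 5.28, that of Cdkn2d from 36.8% ± 2.32 to 24.8% ± 1.46, and that of Cdkn2c from 18.7% ± 1.11 to 11.4% ± 1.64 (SD, n = 3 each). Cdkn1a held 27.0% ± 4.47 in control and 30.6% ± 5.45 in IFNγR1KO cells, with overlapping ranges. With the longest coding transcript as the length, the CIP/KIP share was 51.0% and 68.1%. These shares rest on the same counts as the fold changes above and were not tested.

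**Figure D4:**
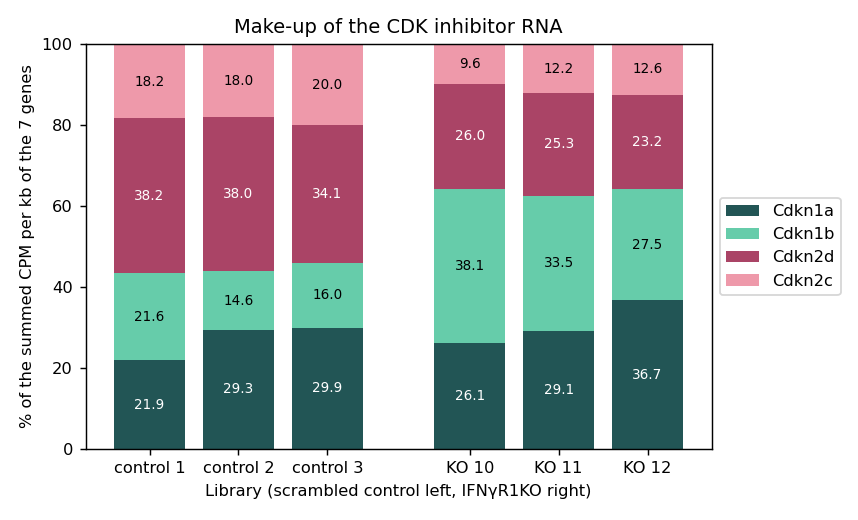
Share of each expressed inhibitor in the summed CPM per kb of the 7 genes (vertical axis, in %), with a bar for each of 3 scrambled control and 3 IFNγR1KO libraries. Cdkn1a and Cdkn1b make up 43.6% to 45.9% of the control bars and 62.5% to 64.5% of the IFNγR1KO bars.

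Ratios of counts within a library do not depend on its depth or scaling. They show the change of a gene relative to another and not the direction of either, which rests on the scaled fold changes above. There were 1.58 ± 0.373 counts of Cdkn1b (SD, n = 3) for each count of Cdkn2c in control libraries and 5.04 ± 1.56 in IFNγR1KO libraries, and the groups did not overlap. For Cdkn1b over Cdkn2d, the ratios were 1.37 ± 0.262 and 3.83 ± 0.402 (SD, n = 3 each), again without overlap. Both INK4 genes kept to each other, with 0.874 ± 0.111 counts of Cdkn2c per count of Cdkn2d in control and 0.791 ± 0.151 in IFNγR1KO libraries, and these ranges overlapped. The ratio of Cdkn1b to Cdkn1a was 0.862 ± 0.348 in control and 1.43 ± 0.454 in IFNγR1KO libraries (SD, n = 3 each), with overlap. The ratios are descriptions of the same counts, with no test.

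**Figure D5:**
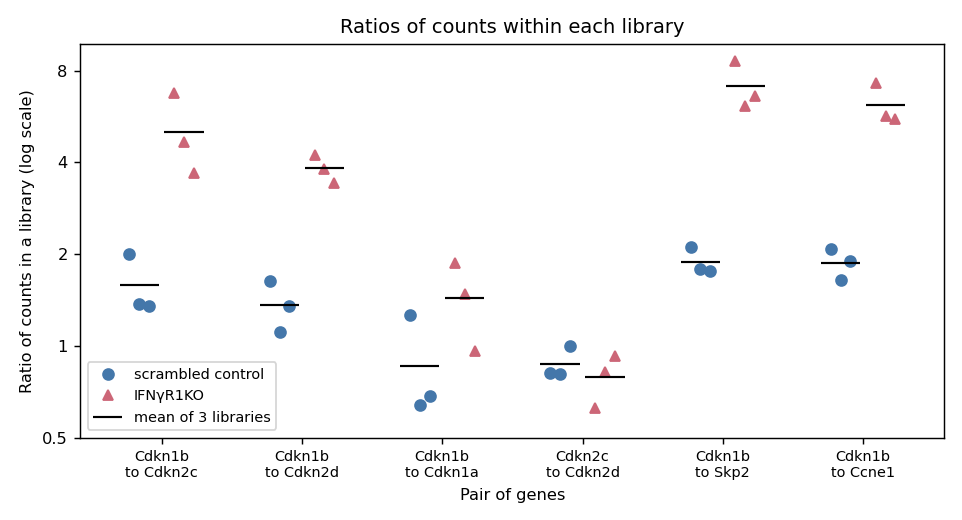
Ratio of the counts of pairs of genes within each library (vertical log axis) for 3 scrambled control (circles) and 3 IFNγR1KO (triangles) libraries, with bars at the mean. The ratios of Cdkn1b to Cdkn2c, Cdkn2d, Skp2 and Ccne1 do not overlap between groups, and those of Cdkn1b to Cdkn1a and of Cdkn2c to Cdkn2d do.

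Over the 6 libraries, log2 CPM of Cdkn1b and Cdkn2c had a Pearson correlation of -0.970, Cdkn1b and Cdkn2d one of -0.730, and Cdkn2c and Cdkn2d one of 0.848, whereas Cdkn1a had between -0.297 and -0.087 with the other 3. These values describe 6 libraries that fall into 2 groups and carry the group difference with them. The protein-coding genes most like each inhibitor by this measure were Smim10l1 (0.996) and Tmem230 (0.995) for Cdkn1b, Shmt1 (0.999) and Hmga1b (0.997), a near-identical copy of Hmga1 whose reads are uncertain, for Cdkn2c, Mxd3 (0.997) and Tspan4 (0.997) for Cdkn2d, and Ptms (0.986) and Stx2 (0.984) for Cdkn1a.

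The kinases and cyclins that the inhibitors bind were lower or did not pass the test. Of 14 listed partners, 12 were tested, 0 were called higher and 8 were called lower (7.62% among all tested genes), with a median log2 fold change of -0.68. Without single libraries, the number of partners called was between 6 and 8. Cdk1, the mitotic kinase, had -1.05 (SE 0.16, adjusted p = 0.00127), and its cyclins Ccna2 and Ccnb1 had -0.86 and -0.77. Ccna2 and Ccnb1 are also in the list of proliferation markers below. Ccnd1, the D-type cyclin that INK4 proteins compete with, had 328 CPM in control and 167 in IFNγR1KO cells (log2 fold change -0.97, SE 0.17, adjusted p = 0.00288). The E-type cyclins Ccne1 and Ccne2, partners of CDK2 and targets of p27, had log2 fold changes of -0.82 and -1.14 with adjusted p of 0.00229 and 0.00288. The kinases Cdk2, Cdk4 and Cdk6, which were looked up after their values had been seen, had log2 fold changes of 0.04, 0.16 and -0.34 with adjusted p of 0.906, 0.571 and 0.452. Ccnd2, also looked up later, pointed the other way from Ccnd1 with 0.55 (SE 0.17, adjusted p = 0.0513). For each count of Ccne1 there were 1.87 ± 0.217 counts of Cdkn1b in control and 6.18 ± 0.958 in IFNγR1KO libraries (SD, n = 3 each), without overlap. Among the called genes named here and below, Ccnd1, Rchy1, Ccne2, Ccna2, E2f8 and Ddit3 share between 10.9% and 23.4% of their exonic bases with another annotated gene.

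Downstream of the kinases, the pocket proteins hold E2F transcription factors until they are phosphorylated. Of 13 listed pocket protein and E2F genes, all 13 were tested, 0 were called higher and 6 were called lower (7.62% among all), with a median log2 fold change of -0.48. E2f2 had -1.13 (SE 0.17, adjusted p = 0.00115), E2f8 -1.03 (SE 0.19, adjusted p = 0.00341) and E2f1, an activator of replication genes, -0.80 (SE 0.15, adjusted p = 0.0034), and Tfdp1, the dimer partner of E2F, had -0.82 (SE 0.13, adjusted p = 0.00116). E2f6, a repressor of the family, and the pocket protein gene Rbl1 had -0.65 and -0.47, with adjusted p of 0.0055 and 0.029.

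All 18 markers of proliferating cells were called lower (7.62% among all tested genes), with log2 fold changes from -1.18 to -0.51 and a median of -0.77. Among them were Rrm2, a subunit of ribonucleotide reductase, at -1.05 (SE 0.14, adjusted p = 0.000392), the mitotic kinase gene Plk1 at -1.18 (SE 0.15, adjusted p = 0.000419) and the replication licensing genes Mcm5 at -0.89, Mcm3 at -1.06 and Mcm4 at -1.15. The number of markers called was 13 without control replicate 2 and 18 without IFNγR1KO replicate 12, and between these without any other single library. Cdkn2c and Cdkn2d were thus lower beside markers that were lower as well. Each was also set against the 18 markers by the ratio of counts within a library, which was chosen after values had been seen. For Cdkn2c, the ratio overlapped between the groups for 14 markers and was higher in every IFNγR1KO library for 4, which were Rrm2, Plk1, Mcm5 and Ccna2. For Cdkn2d, it overlapped for 16 markers, was higher without overlap for Rrm2 and lower without overlap for Aurka, a mitotic kinase gene. The 18 ratios of an inhibitor share its counts, and how often ratios to other genes overlap is not given here. Per count of Plk1, for instance, there were 0.589 ± 0.0307 counts of Cdkn2c in control and 0.793 ± 0.106 in IFNγR1KO libraries (SD, n = 3 each). Per count of all 18 markers together, there were 0.0140 ± 0.000608 and 0.0145 ± 0.000466 counts of Cdkn2c, and 0.0162 ± 0.00168 and 0.0187 ± 0.00323 counts of Cdkn2d, with overlap for both (SD, n = 3 each). The part of the share of dividing cells in the lower INK4 counts was not tested.

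The p27 and p21 proteins are turned over by ubiquitin ligases, and 16 listed genes of these ligases and their cofactors were all tested. Of these, 4 of 16 were called, 2 higher and 2 lower, where 15.3% of all tested genes were called (7.73% higher and 7.62% lower), and the median log2 fold change was -0.13. Skp2, the receptor that brings p27 to the SCF ligase, had 590, 599 and 621 counts in control libraries and 217, 258 and 183 in IFNγR1KO libraries, with no overlap on the CPM scale. It was 0.499-fold in IFNγR1KO cells (SE 0.15 on the log2 scale, adjusted p = 0.000866). Dtl, the receptor of the CRL4 ligase that takes p21 at replicating DNA, had -0.93 (SE 0.14, adjusted p = 0.000923). Rchy1, a ring finger ligase that also acts on p27 and p53, had 0.84 (SE 0.16, adjusted p = 0.00481), and Mdm2, the ligase of p53, had 0.46 (SE 0.13, adjusted p = 0.034). Counts of Cdkn1b per count of Skp2 were 1.88 ± 0.197 in control and 7.11 ± 1.31 in IFNγR1KO libraries (SD, n = 3 each), without overlap. RNA of a ligase or an inhibitor does not give the level of either protein, which was not measured in these files.

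Of 30 listed transcriptional regulators of the inhibitors, 27 were tested, 4 were called higher and 0 lower, with a median log2 fold change of 0.04. These 4 are 14.8% of the tested regulators, near the 15.3% called among all tested genes. The 4 were Ddit3 and Atf4, factors of the integrated stress response, at 3.13 (SE 0.18, adjusted p = 4.56e-07) and 1.13 (SE 0.16, adjusted p = 0.000748), and Klf4 and Klf6, zinc finger factors known to raise p21, at 1.95 (SE 0.35, adjusted p = 0.00284) and 0.76 (SE 0.14, adjusted p = 0.00409). Klf4 was low, with 1.40 CPM in control and 5.49 in IFNγR1KO cells. Other regulators were looked up after their values had been seen and did not pass the test: Trp53, the gene of p53, had 0.06 (adjusted p = 0.857), Foxo3, a factor known to raise p27, had 0.53 (adjusted p = 0.0658), and Myc, known to repress p21 and p27, had -0.38 (adjusted p = 0.0723).

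Other targets of p53 were read beside Cdkn1a. Of 30 listed, 25 were tested, 6 were called higher (7.73% among all tested genes) and 0 lower, with a median log2 fold change of 0.17. Sesn2, a stress-induced regulator of mTORC1 that ATF4 also drives, had 1.53 (SE 0.15, adjusted p = 3.97e-05). The pro-apoptotic gene Bbc3 had 1.03, the antiproliferative gene Btg2 had 1.15, Rrm2b, a p53-induced subunit of ribonucleotide reductase, had 0.67, and Trp53inp1 and Mdm2 had 1.00 and 0.46. Btg2 was low, with 2.53 CPM in control and 5.63 in IFNγR1KO cells, as was Trp53inp1, with 5.09 and 10.2. Mdm2 is also among the ligase genes above. Cdkn1a, at 0.12, was not among the called targets, and no test of a difference between Cdkn1a and the list was made. The number called fell to 3 without control replicate 2 and to 3 without IFNγR1KO replicate 10.

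Beyond the families, 10 genes were listed, among them genes for other proteins that inhibit or bind CDKs. Of these, 9 were tested, and 1 was called higher and 2 lower (7.73% and 7.62% among all tested genes). The 1 called higher was Trib3, a pseudokinase of the stress response best known for binding Akt rather than a CDK. Its log2 fold change was 3.49 (SE 0.15, adjusted p = 8.78e-08). Wee1, the kinase that holds CDK1 inactive, had -1.06 (SE 0.19, adjusted p = 0.00285). Cdkn3, a phosphatase that acts on CDK2 and belongs to neither family despite its name, had -0.60 (SE 0.16, adjusted p = 0.0225).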

How the data were processed

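RNA of 3 scrambled control and 3 IFNγR1KO cultures of B16-BL6 cells was sequenced. Per the processing notes, read pairs were mapped to GRCm38 by STAR 2.7.5a. The authors deposited counts of reads per gene, made with HTSeq 0.11.2 and neither normalized nor filtered. Strand setting and annotation release are not given in the sources used here. Groups and replicate numbers came from the sample labels.

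Genes were named and measured by GENCODE M21, in which 55154 of 55335 identifiers were found without the version number. In R 4.3.3, edgeR 4.0.16 was used with filterByExpr (minimum count 10, minimum total 15), TMM scaling and its quasi-likelihood test. P-values of 13642 genes were adjusted by the Benjamini-Hochberg method, and an adjusted p under 0.05 was called. A standard error (SE) is the log2 fold change over the square root of F. Unless another test is named, every adjusted p is from edgeR. The fit was tested on simulated data. The CPM per kb is TMM-scaled CPM over the union of exons. Counts of 3 were taken as the floor, which covers counting error only, and 95% intervals are from the fit and include the spread between replicates. Within groups, replicates differed by more than sampling noise (chi-square per degree of freedom 2.62 to 22.7).

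Alternatives were DESeq2 1.42.0 (Wald test), limma 3.58.1 (voom), other scalings, no filter, another gene length and leaving out each library. Named genes were all 7 inhibitors, Ifngr1, up to 6 called genes per list with the smallest adjusted p, the nearest protein-coding neighbors, genes that share exonic bases with an inhibitor, and the 2 genes of highest correlation. The genes and lists were chosen with earlier results of these data known. Ratios, the reading of the chromosome 4 stretch and genes said to be looked up later were chosen after values had been seen. Promoter windows are from RefSeq (GRCm38.p6). Phosphoproteomic and human tumor data of the study were not analysed here.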

Additional observations from a re-analysis of the deposited data

How the results depend on the processing

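Over the alternatives run, none reversed a called result, and 120 of 130 values were counted as unchanged. A fold change counted as unchanged if it stayed on the same side of the threshold, and a level if it stayed within the spread. A number of called genes was allowed a limited relative shift. Such shifts were from 3 to 2 inhibitors and from 18 to 13 proliferation markers, both without control replicate 2. Cdkn1b and Cdkn2c were called, each in its direction, in all 11 alternative fits. Leaving out single libraries gave log2 fold changes of Cdkn2d between -0.70 and -0.52, and its adjusted p was above the threshold without control replicate 2 (-0.52) and without IFNγR1KO replicate 11 (-0.59). The number of inhibitors called was 3 in every fit of all 6 libraries and 0 with a log2 fold change above 1 as an added criterion. With the longest coding transcript as the length, the level of Cdkn1a was 68.6 CPM per kb in control and 74.3 in IFNγR1KO cells, that of Cdkn2c in control was 30.0, and the CIP/KIP share was 51.0% and 68.1%, a change that follows from the lengths. Called p53 targets numbered 3 to 7 without single libraries, called proliferation markers 13 to 18, and called cyclin and CDK partners 6 to 8. The cause was not tested. Over all genes, leaving out a library gave between 1028 calls (without IFNγR1KO replicate 11) and 2824 (without IFNγR1KO replicate 12). Upper quartile scaling gave 1195 higher and 929 lower calls, against 1054 and 1039 with TMM. Cdkn1c, without a filter, had a log2 fold change of -0.15 with an adjusted p of 0.94. No paired analysis was possible because the groups share no replicate number. Depth limits Cdkn1c, which had at most 6 counts in a library. For Cdkn2a and Cdkn2b, 0 counts in all 6 libraries still allow a level of up to 0.0587 CPM (3 counts over all libraries, counting error only).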
